A study of Physalis pubescens with 5 samples.

Results

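The gibberellin transcripts of a nightshade, Physalis floridana P106, were compared between young fruits and floral buds. They were chosen by the text of each unigene's protein database hit. Unigenes are the assembled transcripts on which reads were counted. A unigene was taken as a member when its description held gibberell, kaurene, kaurenoic, copalyl, GID1 or GASA, and did not hold scarecrow, DELLA or geranyl. This gave 90 of the 133571 unigenes. By description, 44 stood for enzymes that make gibberellin, 25 for gibberellin 2-oxidases that inactivate it, 11 for GID1 receptors and 8 for gibberellin-regulated proteins. The other 2 were described as gibberellic acid insensitive protein, or GAI, a repressor of the DELLA type whose description did not use that word.

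Gibberellins are diterpene hormones of stem growth, germination and fruit set. Copalyl diphosphate synthase and ent-kaurene synthase build the ent-kaurene skeleton in plastids, and the P450 enzymes ent-kaurene oxidase and ent-kaurenoic acid oxidase oxidise it. The soluble 20-oxidases and 3-oxidases then complete the active hormone, and 2-oxidases inactivate it. The active hormone binds GID1, which leads to the destruction of DELLA repressors through a GID2 or SLEEPY F-box protein. In tomato, a relative of Physalis, gibberellin applied to unpollinated flowers can set seedless fruit. The small cysteine-rich GASA proteins, described in the files as gibberellin-regulated, were named for their response to the hormone.

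The young fruits were labelled as taken after fertilization and the floral buds as taken before it, with 2 libraries of each. All came from P106 plants of 1 glasshouse protocol, in days of 16 h light and 8 h dark, under the organism name Physalis pubescens. The design text speaks of triplicates, where the labels give 2. Since the labels do not tie libraries to different plants, a p-value reflects only how far these libraries spread, possibly for technical reasons. A sample of mixed organs was not analysed here.

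The libraries held 61.7 to 67.4 counts per unigene on average, and their totals differed by at most 1.09 times. Levels are given in CPM, counts scaled by library total, with replicate 1 before replicate 2 of each organ, and 1 count was worth 0.111 to 0.121 CPM. The members together took 0.309% of the counts in fruit replicate 1 (95% Wilson interval 0.305 to 0.313) and 0.241% in fruit replicate 2 (0.238 to 0.245), against 0.23% in bud replicate 1 (0.227 to 0.233) and 0.177% in bud replicate 2 (0.175 to 0.18). These intervals cover counting error only. The fruit libraries stood far apart from each other. Transcripts matched by pollen, anther or tapetum terms (61 unigenes) summed to 875 CPM in fruit replicate 1, with 7290 CPM in fruit replicate 2, against 3407 and 4079 CPM in floral buds. Green tissue transcripts (57 unigenes) summed to 12179 and 4035 CPM in young fruits, against 4756 and 4764 CPM in floral buds. Seed storage and oil body transcripts (14 unigenes) summed to 9.33 and 375 CPM in young fruits, against 4962 and 5211 CPM in floral buds, although the buds are labelled as taken before fertilization. In RNA from whole organs, fewer cells of a type and less RNA per cell cannot be told apart. The part that these marker transcripts have in any result below was not tested.

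Of the 90 members, 45 had enough counts to be tested, and 11 had at most 3 counts in every library. Fruit was set against bud with the quasi-likelihood test of edgeR, and p-values were adjusted by Benjamini-Hochberg over all 59858 tested unigenes. With an adjusted p under 0.05 as the threshold, 0 members were called higher in fruit and 0 lower, where the share called over all tested unigenes was 0.0% in each direction. At an unadjusted p under 0.05, 3 members were higher and 0 lower, where 0.51% and 1.11% of all tested unigenes were. DESeq2 called 0 members as well, while it called 0.0491% of its tested unigenes higher and 0.21% lower. None of the differences below passed the test on all 4 libraries, and they are given as values. On simulated counts the edgeR test recovered 1 of 50 changes of 4-fold, so that 0 calls do not show the members to be unchanged.

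Read by the replicate number, with 1 library per organ, 10 of the 45 tested members were at least 2-fold higher in fruit for replicate 1 (5.55% of all tested unigenes) and 8 at least 2-fold lower (13.0%). For replicate 2, 9 members were at least 2-fold higher (5.55%) and 0 lower (3.55%). Both numbers gave at least 2-fold higher for 4 members (0.473%), of which 3 were 2-oxidases and 1 was a 3-oxidase, and lower for 0 (1.84%). No member reached 4-fold for both numbers in either direction (0.0384% higher, 0.66% lower). Fruit replicate 1 was the highest library for 16 members (36.5%) and the lowest for 18 (28.6%), and fruit replicate 2 the highest for 15 (17.2%) and the lowest for 9 (31.4%). Bud replicate 1 was highest for 6 (24.8%) and lowest for 8 (16.3%), and bud replicate 2 highest for 8 (21.5%) and lowest for 10 (23.7%).

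**Figure D1:**
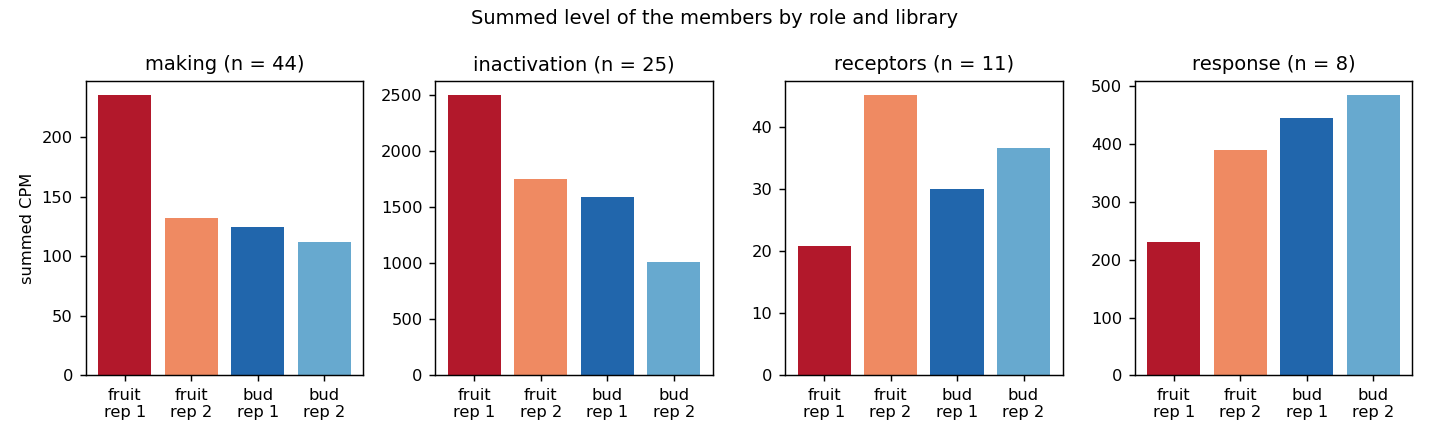
Summed CPM of the members of each role (bars) in the 2 fruit and then the 2 bud libraries, each panel with its own axis from 0. Both fruit libraries stand above both bud libraries for making (235 and 132 CPM against 125 and 112 CPM) and inactivation, and below them for response, while the fruits lie on either side of the buds for the receptors.

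The names of the members depend on which files describe them. The replicate 2 files described 81 members and the replicate 1 files alone the other 9. Of the 81, 78 also had a description in the replicate 1 files, and 45 of these had the same class in both. The 45 include the 2 GAI members, counted as the same because both descriptions fell outside the named classes. Of the 60 members with a KEGG orthology entry, 51 had a first entry that named the same class. The 90 members matched 49 distinct database proteins, 67 members by a tomato protein, and their lengths ran from 167 to 1374 bases with a median of 370.5. Many may be fragments, and several may come from 1 gene, so that their separate levels are uncertain.

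**Figure D2:**
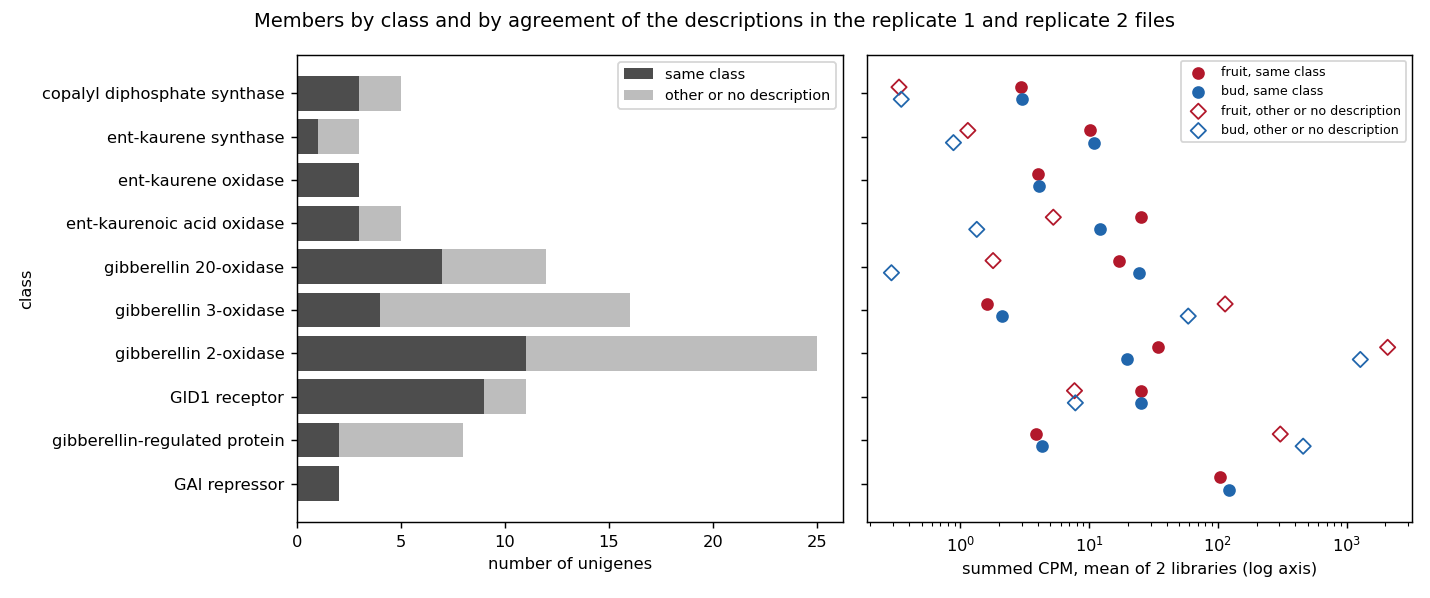
Left, number of unigenes in each class with the same class in the descriptions of both sets of files (dark) and with another or no description (light). The GAI repressors count as the same because both descriptions fell outside the named classes. Right, summed CPM of these sets as means of 2 libraries on a log axis, fruit in red and bud in blue. The light set of the gibberellin 2-oxidases holds most of the counts, at 1570 to 2466 CPM in 3 libraries and 988 CPM in bud replicate 2.

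The levels of the early enzymes were low and did not separate the organs. The 5 copalyl diphosphate synthase unigenes, the first committed step, summed to 5.44 and 1.09 CPM in young fruits, against 3.82 and 2.87 CPM in floral buds. The unigene of these with the most counts, Unigene85870_P106, was at 3.22 and 0.85 CPM in young fruits, against 1.16 and 1.79 CPM in floral buds. The fruits lay on either side of the buds. The other named synthase unigenes were Unigene117467_P106, at 1.0 and 0.12 CPM in young fruits against 1.85 and 0.96 CPM in floral buds, and Unigene144161_P106, with 5 counts in fruit replicate 1 and 1 count in each other library.

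ent-Kaurene synthase, the next step, was at nearly the same level in all libraries. Unigene11700_P106 stood at 11.4 and 8.98 CPM in young fruits, against 11.2 and 10.5 CPM in floral buds. Its log2 fold change was -0.08 (SE 0.30). The 2 other synthase unigenes, Unigene44254_P106 and Unigene44255_P106, had 10 counts or fewer in every library. The 3 ent-kaurene oxidase unigenes, which share 1 database protein, summed to 3.0 and 4.98 CPM in young fruits, against 4.05 and 4.06 CPM in floral buds. Unigene85940_P106 was at 1.11 and 2.06 CPM in young fruits against 1.97 and 1.79 CPM in floral buds. Unigene64215_P106 had 2 and 10 counts in young fruits against 9 and 9 in floral buds. Unigene106385_P106 was the only one of the 3 with both fruits above both buds, at 1.67 and 1.7 CPM in young fruits against 1.04 and 1.19 CPM in floral buds, from 9 to 15 counts a library.

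ent-Kaurenoic acid oxidase, which leads from the kaurene skeleton to the first gibberellin, was high in fruit replicate 1 and not in fruit replicate 2. Its 5 unigenes share 1 database protein and summed to 51.9 CPM in fruit replicate 1, with 9.47 CPM in fruit replicate 2, against 13.9 and 13.1 CPM in floral buds. Unigene77980_P106 stood at 23.1 and 4.13 CPM in young fruits, against 5.78 and 4.78 CPM in floral buds (log2 fold change 1.31, SE 0.80). Fruit replicate 2 lay below both buds. Unigene79415_P106 was at 15.4 and 3.28 CPM in young fruits against 5.2 and 6.81 CPM in floral buds. Unigene79616_P106 was at 4.11 and 0.85 CPM in young fruits against 1.97 and 0.6 CPM in floral buds. For all 5 unigenes fruit replicate 1 was the highest library. Unigene19075_P106, chosen here for its values, had 48 counts in fruit replicate 1, 2 in fruit replicate 2, 1 in bud replicate 1 and 0 in bud replicate 2. Without fruit replicate 1 the log2 fold change of Unigene77980_P106 was -0.23. Green tissue transcripts moved in the same way, at 12179 CPM in fruit replicate 1 against 4035 to 4764 CPM elsewhere.

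Of the 20-oxidase unigenes, 3 had enough counts for the test, and these carried 1 name. The 3 unigenes described as gibberellin 20-oxidase 4, which share 1 database protein and carry the same name in both sets of files, were low in fruit replicate 1. They summed to 6.55 CPM in fruit replicate 1, with 20.4 CPM in fruit replicate 2, against 20.5 and 26.6 CPM in floral buds. Unigene95605_P106 was at 4.11 and 10.6 CPM in young fruits against 10.6 and 16.0 CPM in floral buds (log2 fold change -0.81, SE 0.64). Both fruits were below both buds, fruit replicate 2 only just. Unigene31953_P106 was at 1.11 and 7.16 CPM in young fruits, against 6.48 and 6.21 CPM in floral buds, so that fruit replicate 1 alone was low. Unigene95617_P106 was at 1.33 and 2.67 CPM in young fruits against 3.35 and 4.42 CPM in floral buds (log2 fold change -0.92, SE 0.59). Without fruit replicate 1 the log2 fold changes of Unigene95605_P106 and Unigene95617_P106 were -0.22 and -0.42, and without fruit replicate 2 they were -1.81 and -1.65. The other 9 20-oxidase unigenes had too few counts for the test. Of these 9, 8 were highest in fruit replicate 1, where 36.5% of all tested unigenes were. That share leaves out unigenes with too few counts for the test, so it is not a like background. Of the 9, 4 were described only in the replicate 1 files, so that their choice may favour replicate 1 libraries, and no pattern is read from these low counts. Pollen, anther and tapetum transcripts were also lowest in fruit replicate 1, at 875 CPM against 3407 to 7290 CPM in the other libraries.

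The 3-oxidases, which complete the active hormone, summed to 147 and 84.1 CPM in young fruits and 68.9 and 53.0 CPM in floral buds (16 unigenes). The unigene with the most counts over the 4 libraries was Unigene29420_P106, 184 bases long, at 103 and 47.5 CPM in young fruits, against 44.2 and 20.8 CPM in floral buds (log2 fold change 1.21, SE 0.54, unadjusted p = 0.0821, adjusted p = 1 by edgeR). Both fruits were above both buds, fruit replicate 2 barely so. The replicate 1 files describe this unigene as a putative gibberellin 20 oxidase, and its hit had an E-value of 4.71e-08. Unigene32482_P106, described as 3-beta-dioxygenase 3-like and chosen here for its values, stood at 8.89 and 7.65 CPM in young fruits, against 4.4 and 3.1 CPM in floral buds. In the edgeR fit of all 4 libraries it had the smallest unadjusted p of any member, 0.0279 (log2 fold change 1.15, SE 0.36, adjusted p = 1 by edgeR). The replicate libraries of this unigene lay close together within each organ. Unigene4667_P106 was at 17.6 and 6.43 CPM in young fruits against 6.94 and 8.96 CPM in floral buds, and Unigene5122_P106 was at 5.78 and 17.2 CPM in young fruits against 6.71 and 13.97 CPM in floral buds. For both the organs overlapped. The 4 unigenes named 3-oxidase in both sets of files summed to 2.0 and 1.21 CPM in young fruits, against 2.43 and 1.79 CPM in floral buds. The highest of them, Unigene12151_P106, was at 1.56 and 0.49 CPM in young fruits against 1.5 and 0.84 CPM in floral buds (log2 fold change -0.20, SE 0.78).

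Over the making enzymes, the summed level was 184 ± 73.2 CPM in young fruit and 118 ± 9.39 CPM in floral buds (SD over 2 libraries). The median log2 fold change of the 18 tested making members was 0.38, beside 0.01 over all tested unigenes. For the replicate numbers taken apart, the median was 0.67 between the replicate 1 libraries (-0.04 over all tested unigenes) and -0.13 between the replicate 2 libraries (0.0 over all tested unigenes). Over the 21 making members with the same class in both sets of files, the sums were 75.6 and 46.8 CPM in young fruits and 54.4 and 58.7 CPM in floral buds, so that the fruits lay on either side of the buds.

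By the descriptions used here, the 2-oxidases were the most abundant role, also per length, and both fruit libraries stood above both bud libraries. In RPKM, reads per kilobase scaled to the library total, the 2-oxidases summed to 4776 and 2978 in young fruits, against 2765 and 1788 in floral buds. The highest RPKM sum of another role was 828. With the descriptions of the replicate 1 files first the order turned, with 1801 to 3015 RPKM in young fruits for making against 595 to 889 RPKM for inactivation. By the descriptions used here, the 25 2-oxidase unigenes summed to 2496 and 1744 CPM in young fruits, against 1589 and 1009 CPM in floral buds. The mean was 2120 ± 531 CPM in young fruit and 1299 ± 411 CPM in floral buds (SD over 2 libraries), a ratio of 1.63. The median log2 fold change of the 12 tested members was 0.70, with 0.73 between the replicate 1 libraries and 0.99 between the replicate 2 libraries. Both fruits were above both buds for 5 of the 12 tested 2-oxidase members, where 8.49% of all tested unigenes were, and both were below for 0, where 13.6% were. Of the 5, Unigene54265_P106 and Unigene127070_P106 share a database protein, and Unigene130424_P106 and Unigene130973_P106 share a description. The 5 may therefore not stand for separate genes. Of the 18 tested making members, 3 were above and 2 below. The difference between the roles was not tested.

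**Figure D3:**
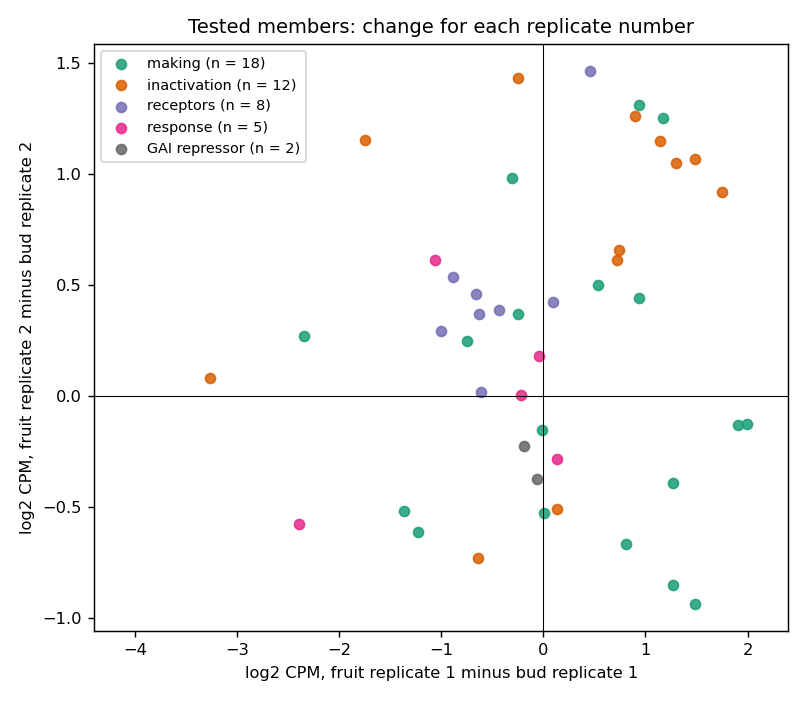
Difference in log2 CPM of each tested member between fruit and bud replicate 1 (horizontal axis) and between fruit and bud replicate 2 (vertical axis), coloured by role. Of the 12 inactivation members, 7 lie in the upper right, higher in fruit for both numbers, whereas the receptors lie mostly in the upper left, at a median of -0.62 for replicate 1 and 0.41 for replicate 2.

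Most of the 2-oxidase counts came from 4 unigenes that match 1 tomato protein described as gibberellin 2-beta-dioxygenase 2-like. They held 97.0% of the class's counts in fruit replicate 1 (95% Wilson interval 96.8 to 97.2) and 97.2% in fruit replicate 2 (96.9 to 97.4), against 98.1% in bud replicate 1 (97.9 to 98.3) and 96.9% in bud replicate 2 (96.6 to 97.3). The first, Unigene54265_P106, was at 1296 and 814 CPM in young fruits, against 761 and 559 CPM in floral buds (log2 fold change 0.68, SE 0.45). Both fruits were above both buds. Per length, its level was 2205 and 1384 RPKM in young fruits and 1295 and 950 RPKM in floral buds. The replicate 1 files describe the same unigene as a putative gibberellin 20 oxidase, a making enzyme.

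Unigene53305_P106 stood at 642 and 230 CPM in young fruits, against 373 and 154 CPM in floral buds, with fruit replicate 2 below bud replicate 1. Unigene877_P106 was at 311 and 547 CPM in young fruits against 358 and 213 CPM in floral buds, and here fruit replicate 1 lay between the buds. The replicate 1 files call the first a 2-oxoglutarate-dependent dioxygenase, the wider enzyme family of all these oxidases, and the second a hypothetical protein. The KEGG entry of Unigene53305_P106 names a gibberellin 2-oxidase, while that of Unigene877_P106 names a gibberellin 3-beta-dioxygenase, a making enzyme. Without fruit replicate 2 the log2 fold change of Unigene877_P106 was 0.04, against 0.65 with it. Unigene127070_P106, chosen here for its values, was at 172 and 104 CPM in young fruits against 67.4 and 52.9 CPM in floral buds. Its log2 fold change was 1.19 (SE 0.38, unadjusted p = 0.0289, adjusted p = 1 by edgeR), and DESeq2 gave an adjusted p of 0.0813, the smallest of any member. The E-value of its hit was 8.03e-08 over 224 bases, and the replicate 1 files give it no description.

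The 2-oxidases with the same class in both sets of files were at much lower levels, and their sum also stood higher in both fruits. These 11 unigenes summed to 30.1 and 38.8 CPM in young fruits, against 18.9 and 20.2 CPM in floral buds, or 34.5 ± 6.17 CPM in young fruit and 19.5 ± 0.94 CPM in floral buds (SD over 2 libraries). Of the 11, 5 were tested, 3 with a positive log2 fold change and 2 with a negative one, Unigene77226_P106 (-0.27) and Unigene117945_P106 (-1.34). The 3 positive ones are given here, chosen for their values. Unigene130424_P106, described as gibberellin 2-oxidase 2, was at 12.8 and 18.1 CPM in young fruits against 4.28 and 8.96 CPM in floral buds (log2 fold change 1.24, SE 0.55). Unigene129850_P106 was at 6.22 and 8.74 CPM in young fruits against 3.12 and 3.7 CPM in floral buds (log2 fold change 1.16, SE 0.43, unadjusted p = 0.0496, adjusted p = 1 by edgeR). Unigene130973_P106 was at 4.0 and 6.07 CPM in young fruits against 1.62 and 2.75 CPM in floral buds (log2 fold change 1.23, SE 0.55). In all 3 both fruits were above both buds and fruit replicate 2 was the highest library. Their sum was 23.0 and 32.9 CPM in young fruits, against 9.02 and 15.4 CPM in floral buds. The higher fruit sum of the 11 came from these 3, and the sum of the rest did not separate the organs. Per length, Unigene130424_P106 was at 37.4 and 52.9 RPKM in young fruits and 12.5 and 26.2 RPKM in floral buds, far under the RPKM of Unigene54265_P106.

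A different pattern was seen for 2-oxidase unigenes that were high in fruit replicate 1 alone. Unigene75218_P106, described as 2-beta-dioxygenase 8-like, had the highest fitted log2 fold change of the class, 1.68 (SE 1.0), from 10.2 and 1.7 CPM in young fruits against 2.78 and 0.84 CPM in floral buds. Without fruit replicate 1 it was 0.05. Unigene2804_P106 had 113 counts in fruit replicate 1, 5 in fruit replicate 2 and 1 in each bud library. Unigene52728_P106 had 81 and 2 counts in young fruits, against 1 and 1 in floral buds. The last 2 were chosen here for their values and did not reach the count needed for the test. At the low end, Unigene117945_P106 had 0 counts in fruit replicate 1, which allows up to 0.333 CPM, and 1.21 CPM in fruit replicate 2, against 2.08 and 1.19 CPM in floral buds.

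By the descriptions used here, the GID1 receptors, which bind the active hormone, did not separate by organ. With the descriptions of the replicate 1 files first, the receptor sum was lower in both fruits than in both buds. The 11 unigenes summed to 20.8 and 45.1 CPM in young fruits, against 29.96 and 36.7 CPM in floral buds, with means of 33.0 ± 17.2 CPM in young fruit and 33.3 ± 4.74 CPM in floral buds (SD over 2 libraries). Unigene137424_P106 was at 4.67 and 11.3 CPM in young fruits against 7.06 and 11.7 CPM in floral buds (log2 fold change -0.19, SE 0.64). The receptor described as GID1C-like, Unigene90991_P106, was at 4.22 and 10.8 CPM in young fruits against 7.75 and 7.76 CPM in floral buds. Unigene95301_P106 was at 3.0 and 5.34 CPM in young fruits against 4.63 and 4.3 CPM in floral buds. Fruit replicate 1 was the lowest library for 6 of the 8 tested receptors, where it was for 28.6% of all tested unigenes. Fruit replicate 2 was the highest for 6 of the 8, where it was for 17.2%. Of the 8, 4 share a database protein and 2 share another, so that they may not stand for separate genes. The median log2 fold change of the 8 was -0.02, and the receptor sum differed more between the fruit libraries than between the organ means. Pollen, anther and tapetum transcripts had the same order, with fruit replicate 1 the lowest library and fruit replicate 2 the highest. The exception among the receptors was a GID1B-like unigene, Unigene138223_P106, at 2.55 and 3.52 CPM in young fruits against 1.73 and 1.19 CPM in floral buds (log2 fold change 1.08, SE 0.52), with both fruits above both buds from 10 to 29 counts a library.

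The GAI repressors varied little between libraries. Unigene127010_P106 was at 60.0 and 53.0 CPM in young fruits against 60.7 and 72.4 CPM in floral buds, and Unigene129220_P106 was at 47.7 and 48.8 CPM in young fruits against 52.9 and 59.9 CPM in floral buds. Both fruits were below both buds for each of these, by a small margin, and the log2 fold changes were -0.23 (SE 0.33) and -0.21 (SE 0.33). The 2 unigenes share a database protein and may be pieces of 1 transcript.

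**Figure D4:**
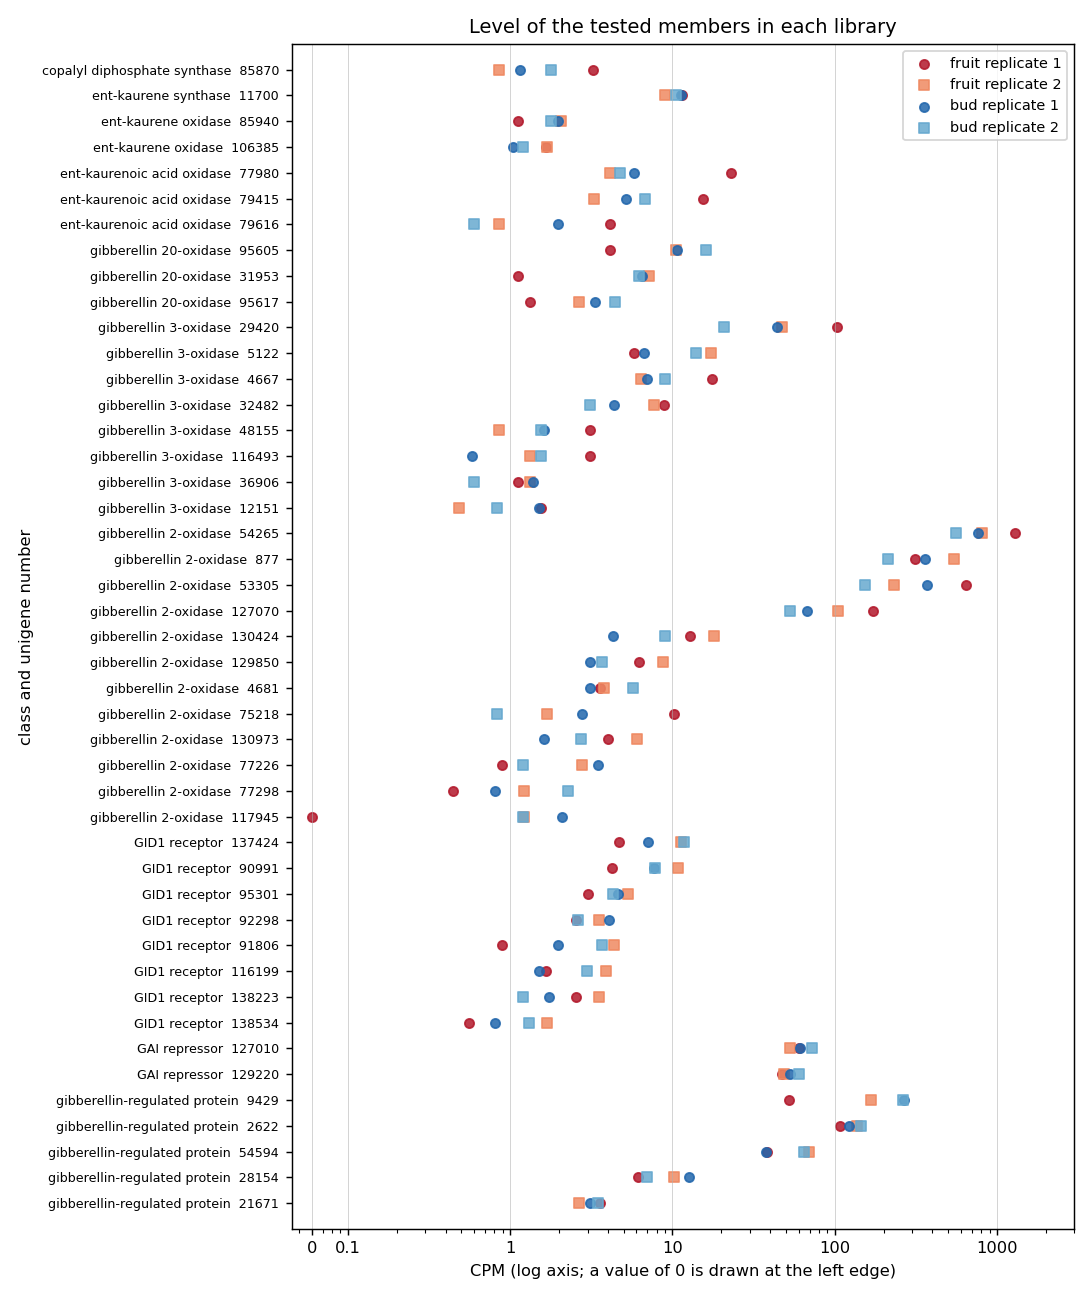
CPM of the 45 tested members in each library on a log axis, 1 row a unigene, ordered by class along the pathway, with a value of 0 drawn at the left edge. The 2-oxidase rows span 0 CPM to 1296 CPM, the 3 ent-kaurenoic acid oxidases have fruit replicate 1 farthest right, and 6 of the 8 receptors have it farthest left.

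Of the gibberellin-regulated proteins, 1 unigene stood low in fruit and the other tested ones did not separate the organs. The 8 unigenes summed to 230 and 389 CPM in young fruits, against 444 and 484 CPM in floral buds. Only 2 of them had the same class in both sets of files, at 4.22 and 3.52 CPM in young fruits against 3.93 and 4.66 CPM in floral buds. The other 6 held 226 and 386 CPM in young fruits, against 440 and 480 CPM in floral buds. Among these 6 are Unigene9429_P106, Unigene54594_P106 and Unigene2622_P106. Of the 8, 0 had a KEGG entry, so that the name of the class rests on 1 set of files for most counts. Unigene9429_P106, described as gibberellin-regulated protein 6-like, was at 52.3 and 168 CPM in young fruits against 268 and 264 CPM in floral buds (log2 fold change -1.20, SE 0.71, adjusted p = 1 by edgeR). Both fruits were below both buds, which were nearly equal. Its log2 fold change was -0.54 without fruit replicate 1 and -2.45 without fruit replicate 2. Without this unigene the role summed to 178 and 221 CPM in young fruits against 177 and 221 CPM in floral buds, so that the means of the organs were nearly equal. Unigene54594_P106, which shares the name, was at 38.0 and 69.3 CPM in young fruits against 37.9 and 64.2 CPM in floral buds. Its level followed the replicate number. Unigene2622_P106, protein 10-like, was at 108 and 138 CPM in young fruits against 122 and 144 CPM in floral buds.

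One response unigene was present in a single library. Unigene94821_P106, described only in the replicate 1 files as a gibberellin induced protein, had 192 counts, or 21.3 CPM, in fruit replicate 1 and 0 counts in each other library. A count of 0 allows up to 0.364 CPM. Its database hit was a protein of Sonneratia alba, a mangrove, whereas 67 of the 90 members hit tomato. It was chosen here for its values.

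The members called depended on which fruit library was used. Without fruit replicate 2, edgeR called 8 of 63 tested members higher, where 2.29% of all tested unigenes were, and 3 lower, where 6.14% were. The log2 fold changes of these 11 in that fit ran from -2.60 for Unigene31953_P106 to 10.5 for Unigene94821_P106. The 8 were the 2-oxidase unigenes Unigene127070_P106, Unigene75218_P106, Unigene2804_P106 and Unigene52728_P106, the kaurenoic acid oxidases Unigene77980_P106 and Unigene19075_P106, the 3-oxidase Unigene29420_P106 and the single-library Unigene94821_P106. The 3 lower members were the 20-oxidases Unigene95605_P106 and Unigene31953_P106 and the regulated protein Unigene9429_P106. Without fruit replicate 1, edgeR called 0 of 49 tested members in either direction, where 1.44% of all tested unigenes were called higher and 0.466% lower, and 6 members were higher at an unadjusted p under 0.05 (3.79% of all tested unigenes) and 0 lower (2.44%). These fits assume that a single fruit library varies as the buds do. Their filter on counts could also be passed through a single library. Of the 8 members higher without fruit replicate 2, Unigene2804_P106, Unigene52728_P106, Unigene19075_P106 and Unigene94821_P106 were not in the edgeR fit of all 4 libraries. They entered through fruit replicate 1, the library where they were high, so that their calls are no separate support.

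Other genes of the pathway that are not members were matched by name, and edgeR called 0 of their tested unigenes in either direction. The 16 unigenes of geranylgeranyl diphosphate synthase, which supplies the precursor, summed to 196 and 220 CPM in young fruits, against 171 and 192 CPM in floral buds. The GID2-like F-box unigene, Unigene11530_P106, was at 32.7 and 75.7 CPM in young fruits against 40.6 and 82.4 CPM in floral buds, so that it followed the replicate number. The 13 other DELLA unigenes summed to 83.1 and 82.0 CPM in young fruits, against 76.2 and 94.3 CPM in floral buds. SPINDLY, a sugar transferase that restrains gibberellin signalling in Arabidopsis, summed to 191 and 152 CPM in young fruits and 181 and 159 CPM in floral buds over 9 unigenes. Phytochrome-interacting factors, which DELLA proteins bind in Arabidopsis, summed to 67.4 and 79.0 CPM in young fruits and 72.3 and 72.1 CPM in floral buds over 17 unigenes. None of these sums separated the organs except that of the synthase.

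GAMYB, a transcription factor that acts downstream of gibberellin in anthers and in cereal aleurone, had lower sums in both fruits, with no unigene past the test. Its 13 unigenes summed to 11.7 and 18.3 CPM in young fruits, against 32.5 and 33.4 CPM in floral buds, or 15.0 ± 4.71 CPM in young fruit and 33.0 ± 0.66 CPM in floral buds (SD over 2 libraries). Both fruits were below both buds for 5 of the 6 tested unigenes, where 13.6% of all tested unigenes were. The 5 are described only as GAMYB-like2 or GAMyb-like1, so that several may be pieces of the same gene. The GAMYB unigene with the highest mean CPM, Unigene23715_P106, chosen here for its values, was at 2.89 and 3.88 CPM in young fruits against 8.79 and 9.55 CPM in floral buds (log2 fold change -1.41, SE 0.40, unadjusted p = 0.0207, adjusted p = 1 by edgeR). Both fruits were below both buds. Seed transcripts were also low in both fruits, at 9.33 and 375 CPM in young fruits against 4962 and 5211 CPM in floral buds, and pollen, anther and tapetum transcripts were at 875 and 7290 CPM in young fruits against 3407 and 4079 CPM in floral buds. Their part in the GAMYB values was not tested.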

How the data were processed

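The deposited files give, per the file headers, the count of uniquely mapped reads on each unigene and its RPKM, which is that count divided by unigene length and library total. The deposited coverage, a percent of unigene length, was not used for results. Which programs assembled, aligned and counted is not given in the sources used here. Unigenes absent from a file were set to 0 counts. Descriptions came from the replicate 2 files, or else the replicate 1 files. Unique mapping may drop reads of near-identical unigenes, so levels of unigenes with 1 shared hit are uncertain.

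The counts entered edgeR 4.0.16 (R 4.3.3) with filterByExpr by organ, TMM factors (0.918 to 1.08), glmQLFit and glmQLFTest with no covariate, 2 residual degrees of freedom, a two-sided test and Benjamini-Hochberg adjustment over 59858 unigenes. DESeq2 1.42.0 was an alternative. CPM use library totals, and changes for a replicate number are log2 CPM with TMM factors and a prior count of 2. The floor was 3 counts. Permuting 2 against 2 libraries exactly cannot give a p below 0.333, and was not done. The fitting step was tested on simulated counts with 1 common spread for all unigenes. It recovered 1 of 50 changes of 4-fold, 29 of 50 of 16-fold and 48 of 50 of 64-fold. The changed unigenes averaged over 50 counts.

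The members and lists were chosen with earlier results of these data known. Named unigenes were, in each class, the 3 with the highest mean CPM and those with the highest and lowest tested fold change, plus any called or at least 4-fold changed for both replicate numbers (0). The rule named 33. Helicases named PIF were dropped from the phytochrome-interacting factors.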

Additional observations from a re-analysis of the deposited data

How the results depend on the processing

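The edgeR fit called 0 unigenes in each direction under RLE factors, without a filter, with a stricter filter and with the replicate block, and DESeq2 called 30 higher and 128 lower. Leaving out 1 library gave 0 to 1546 higher and 0 to 4135 lower over all unigenes, and 0 to 8 higher and 0 to 3 lower among the members. Same-numbered libraries deviated together (r = 0.466 over 59858 unigenes), but no label says that a number marks a shared plant or batch. With the replicate block, 7 members were higher and 0 lower at an unadjusted p under 0.05, against 3 and 0 without it; over all 59858 unigenes, 571 were higher and 1052 lower with the block, against 305 and 666 without it. The log2 fold change of Unigene90991_P106 was -0.17 with the block, which changed no call. With the descriptions of the replicate 1 files first there were 73 members, 58 of them shared with the main choice, with 14 for inactivation and 18 receptors. The making sum was then 1522 and 943 CPM in young fruits, against 891 and 689 CPM in floral buds, and the inactivation sum 212 and 146 CPM in young fruits, against 89.9 and 76.2 CPM in floral buds, so that the order of the 2 roles turned. Among the members that moved, 3 unigenes described as 2-oxidases became 20-oxidases. The log2 ratio of the response sum, fruit over bud, was -0.59 as reported, 0.97 under that choice and 0.0041 without its highest unigene. The receptor sum separated the organs under that choice, at 82.9 and 75.7 CPM in young fruits, against at least 103 CPM in floral buds. Its log2 ratio, fruit over bud, was then -0.40, against -0.015 as reported. The median log2 fold change of inactivation was 1.17 with DESeq2. Leaving out 1 library, medians ran from -0.17 to 1.09 for making, 0.39 to 1.0 for inactivation, -0.83 to 0.67 for receptors and -0.55 to 0.11 for response. The same step turned the direction of 15 named members, whose log2 fold changes ran from -0.049 to 1.40 for Unigene53305_P106, -0.67 to 1.01 for Unigene85870_P106, -0.85 to 0.26 for Unigene85940_P106, -0.23 to 2.03 for Unigene77980_P106, -0.76 to 1.25 for Unigene79415_P106, -0.45 to 1.92 for Unigene79616_P106 and -2.60 to 0.30 for Unigene31953_P106. They ran from -0.97 to 0.94 for Unigene5122_P106, -0.19 to 1.03 for Unigene4667_P106, -1.12 to 0.32 for Unigene12151_P106, -1.13 to 0.38 for Unigene137424_P106, -0.98 to 0.60 for Unigene90991_P106, -0.67 to 0.38 for Unigene95301_P106, -0.42 to 0.17 for Unigene2622_P106 and -0.55 to 0.64 for Unigene54594_P106. The cause of these turns was not tested. With 11 members at 3 counts or fewer in every library, differences in these were not detectable at this depth.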
